A study of Mus musculus with 4 samples.

Results

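The 47 genes described here act in G2 and mitosis: they drive entry into mitosis, build the spindle, attach chromosomes to it, check the attachment and divide the cell. They were listed by name from the 55487 genes of the count table, by a rule that uses no value, but the list was drawn up with earlier results of these data known, so its direction is not independent evidence. All 47 were found in it and all 47 passed the filter on low counts, so that each could be tested. The RNA was taken from mouse lower incisors, teeth that grow throughout life and are renewed by dividing progenitors. The sort kept cells without CD45 (a leukocyte protein), Ter119 (erythroid) or Tie2 (endothelial), from animals of strain C57 at postnatal day 30, and the tissue is labelled dental pulp. The 2 controls carried floxed Ptip alleles and no Cre (Ptipf/f), and the 2 knockouts had Sp7-cre in addition (Ptipf/f;Sp7-cre), which places Cre under a gene active in cells that form bone and dentin. PTIP, the product of Paxip1, belongs to complexes that methylate histone H3. Because the controls had no Cre, loss of Ptip and presence of the transgene cannot be told apart, and the labels name no positive marker of progenitors for the gate.

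Mitosis is driven by CDK1 bound to cyclins A and B. Aurora and Polo kinases act with it, motor proteins of the kinesin family separate the spindle poles and move chromosomes, and the spindle checkpoint holds back the anaphase-promoting complex (APC/C), a ubiquitin ligase, until every kinetochore is attached. The genes of this programme are transcribed late in the cell cycle and are low in resting cells, so their messenger RNA level in a tissue depends on how many cells divide as well as on the level per cell. In these bulk samples, fewer dividing cells and less RNA per cell cannot be told apart.

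Many promoters of such genes hold a CHR, a short element bound by the MuvB complex, which represses them in resting cells and, together with B-MYB and FOXM1, activates them in dividing cells. They often also hold CCAAT boxes, the site of the factor NF-Y. RefSeq promoter windows of 300 bases (250 before the start and 50 after it, GRCm38.p6) were found for 39 of the 47 genes. They were searched on both strands for the CHR (TTTGAA or TTCGAA), the CCAAT box (CCAAT) and an E2F site (TTTGGCGC, TTTCGCGC, TTTCCCGC or TTTGCCGC). None of the 3 motifs contains another. A gene counted as holding a motif when any of its windows did. The CHR was found in 31 of the 39 genes (79.5%), against 21.7% of the 27025 genes with a window and 16.9% of those tested here. The CCAAT box was found in 31 (79.5%), against 41.1% and 42.3%. Both together stood in 27 of the 39 (69.2%), in 8.61% of all genes and in 6.90% of those tested. An E2F site of these 4 spellings was found in 1 gene, Cdk1 (2.56%, against 2.60% of all and 4.38% of those tested). These are matches of letters, not measured binding.

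The stretches before the start of 6 genes follow, 5′ to 3′ on the strand of the gene, without annotated exons. Capitals mark the matches to any of the 3 motifs, TTCAAA and ATTGG being the CHR and the CCAAT box read from the other strand. The first 4 genes were lower in both knockouts, and the last 2 (Ckap5 and Ckap2) were among those whose groups overlapped. Cdk1, the mitotic kinase gene, is shown for chr10:69352939-69353162 on the minus strand, up to 26 bases before its start.

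Cdk1: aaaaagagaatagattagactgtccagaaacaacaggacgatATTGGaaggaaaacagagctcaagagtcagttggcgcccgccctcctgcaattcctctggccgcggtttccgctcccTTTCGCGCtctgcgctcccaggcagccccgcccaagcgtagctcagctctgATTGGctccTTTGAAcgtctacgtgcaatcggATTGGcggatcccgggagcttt
Kif11: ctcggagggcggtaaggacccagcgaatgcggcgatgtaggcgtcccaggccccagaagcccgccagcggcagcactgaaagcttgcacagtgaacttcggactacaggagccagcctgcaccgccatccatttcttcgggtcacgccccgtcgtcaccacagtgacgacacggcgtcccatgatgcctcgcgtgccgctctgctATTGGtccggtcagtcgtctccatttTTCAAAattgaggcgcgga
Top2a: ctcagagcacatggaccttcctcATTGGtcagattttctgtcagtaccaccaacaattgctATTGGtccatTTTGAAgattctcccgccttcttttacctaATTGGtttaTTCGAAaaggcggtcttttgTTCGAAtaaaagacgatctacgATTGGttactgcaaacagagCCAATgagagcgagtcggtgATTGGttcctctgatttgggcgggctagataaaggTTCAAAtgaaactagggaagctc
Ube2c: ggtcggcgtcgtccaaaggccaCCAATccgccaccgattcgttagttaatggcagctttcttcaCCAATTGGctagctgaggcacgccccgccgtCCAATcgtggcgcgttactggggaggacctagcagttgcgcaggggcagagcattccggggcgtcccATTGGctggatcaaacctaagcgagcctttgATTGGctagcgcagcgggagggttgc
Ckap5: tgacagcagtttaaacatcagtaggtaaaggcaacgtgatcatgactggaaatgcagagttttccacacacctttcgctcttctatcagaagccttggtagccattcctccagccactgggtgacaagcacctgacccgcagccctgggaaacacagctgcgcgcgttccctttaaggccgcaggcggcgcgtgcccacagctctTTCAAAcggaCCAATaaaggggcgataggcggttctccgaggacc
Ckap2: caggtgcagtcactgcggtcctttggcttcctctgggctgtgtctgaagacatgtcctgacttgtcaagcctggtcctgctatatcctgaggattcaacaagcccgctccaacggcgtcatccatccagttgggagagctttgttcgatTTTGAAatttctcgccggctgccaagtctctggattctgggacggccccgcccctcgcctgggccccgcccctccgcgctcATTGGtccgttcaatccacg

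The Kif11 stretch is chr19:37376132-37376381 on the plus strand and holds 1 CHR and 1 CCAAT box. Top2a (chr11:99024190-99024439, minus strand) holds 4 matches to the CHR and 6 CCAAT boxes. In Ube2c (chr2:164769679-164769897, plus strand, ending 31 bases before the start) there are 6 CCAAT boxes, of which 2 on opposite strands overlap, while its CHR lies in the part not printed, 29 bases before the start. Ckap5 (chr2:91526512-91526761, plus strand) and Ckap2 (chr8:22185820-22186069, minus strand) each hold 1 CHR and 1 CCAAT box in the printed part. The CHR was found in 21 of 27 genes that were lower in both knockouts (77.8%) and in 10 of 12 whose groups overlapped (83.3%). The CCAAT box was found in 23 of those 27 (85.2%) and in 8 of those 12 (66.7%).

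Sequencing depth was 15154246 counts for control 1, 15394782 for control 2, 19142757 for knockout 1 and 17770831 for knockout 2. The deleted gene, Paxip1, stood at 28.3 and 44.3 CPM (the count relative to the library's size after TMM scaling, which makes libraries comparable) in the controls and at 5.69 and 3.98 CPM in the knockouts, as the labels say. Counts of the 47 genes ranged from 52 (Dlgap5 in knockout 2) to 4800 (Bub3 in knockout 1). Their summed share of a library's reads was 0.345% (control 1), 0.287% (control 2), 0.185% (knockout 1) and 0.118% (knockout 2). Whether each library is a separate animal is not in the labels, so the p-values reflect only how these samples vary, which may be technical.

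Mitosis and spindle genes were lower in the knockouts across nearly all functions. In 35 of the 47 genes both knockouts lay below both controls, whereas this held for 24.9% of all 17128 tested genes. In 0 of the 47 did both knockouts lie above both controls, against 25.8% of all tested genes, and in 12 the groups overlapped. The median log2 fold change of the knockout over the control was -1.08, and it was 0.00 over all tested genes. In 44 genes the fold change was negative, against 49.9% of tested genes, and 25 were more than 2-fold lower. Cdca3 (log2 fold change -1.06) and Aurka (-0.99) lay on either side of that limit. Of all tested genes, 17.5% were below the fold change of Cdca3 and 18.6% below that of Aurka. No member passed edgeR's quasi-likelihood test at an adjusted p of 0.05 (Benjamini-Hochberg over all tested genes, 0 of 47, and 0% of all tested genes in either direction), and the smallest adjusted p of a member was 0.145. At an unadjusted p under 0.05, edgeR had 24 of the 47 lower (9.89% of all tested genes) and 0 higher (7.32%). DESeq2 called 16 of the 47 lower at an adjusted p under 0.05 (5.69% of the genes it tested) and 0 higher (2.72%), and limma-voom called 0 of either. With 2 libraries in each group, an exact permutation test of a single gene cannot go below a two-sided p of 0.333.

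**Figure D1:**
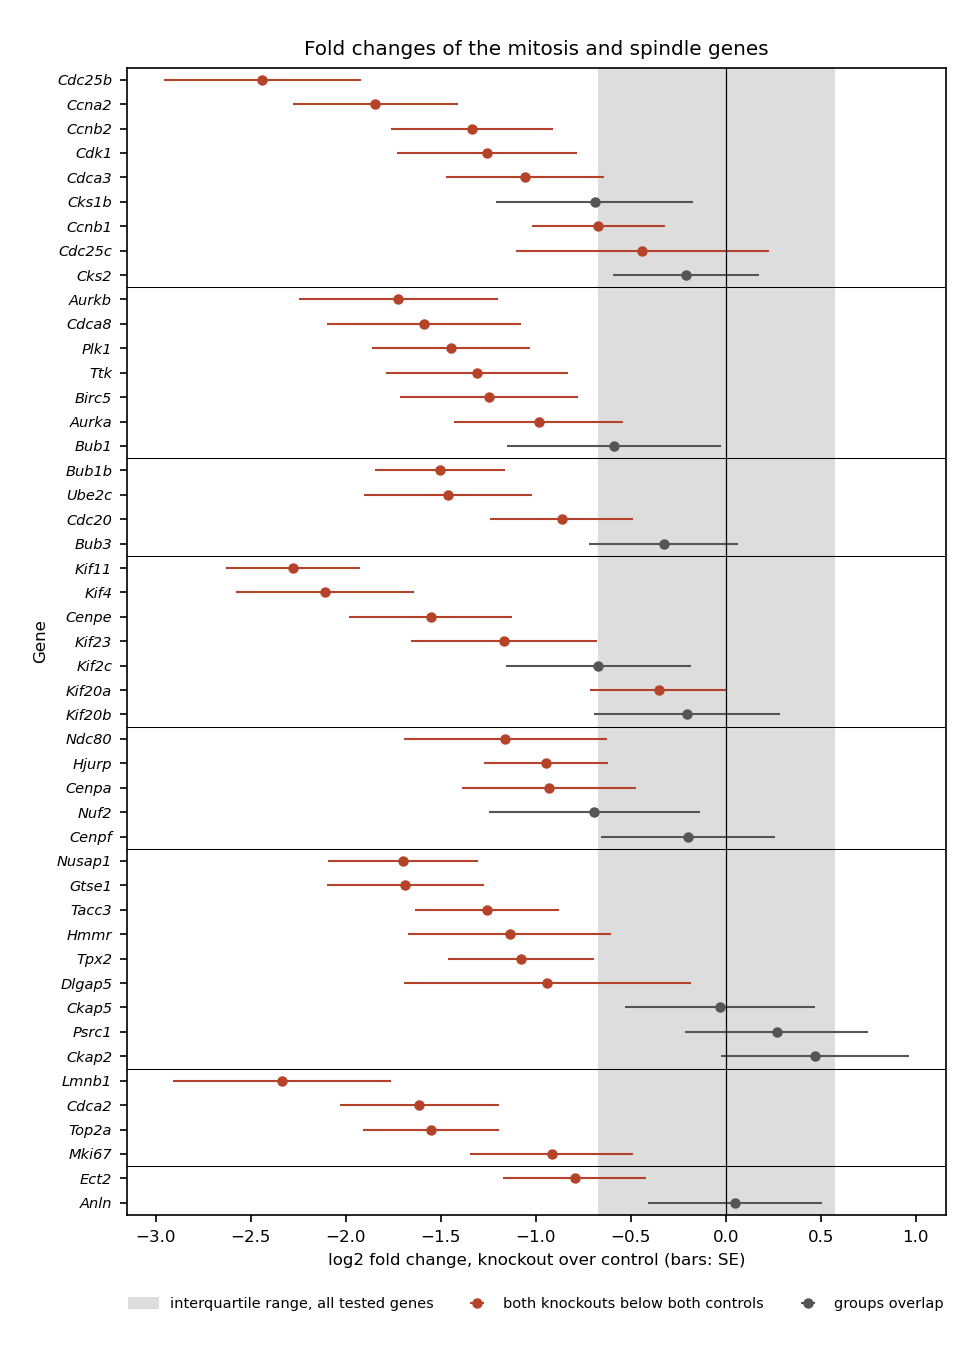
Fitted log2 fold change of each of the 47 genes (x axis, knockout over control, bars are SE, 2 libraries a group), grouped by function from cyclins at the top to cytokinesis at the bottom, with the interquartile range of all tested genes in grey. The 35 genes in red had both knockouts below both controls and reach -2.44 (Cdc25b), and the 12 grey genes with overlapping groups lie between -0.69 (Nuf2) and 0.47 (Ckap2), a range that also holds red genes such as Kif20a and Cdc25c.

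The 4 libraries did not form 2 tight pairs. Centred on each gene's mean, the median log2 CPM of the 47 genes was 0.68 in control 1, 0.48 in control 2, -0.24 in knockout 1 and -0.91 in knockout 2. Knockout 2 was the lowest library for 42 of the 47 genes, against 27.6% of all tested genes, and it was below knockout 1 for 44 of them, against 54.9%. The median difference between the knockouts was 0.65 on the log2 scale. The controls differed less on balance, with control 1 above control 2 for 27 of 47 genes (48.5% of all tested genes) and a median difference of 0.14. Opposite differences offset each other in this median: single genes ran from -1.42 (Ckap5) to 1.23 (Cdc25b). Without knockout 2 the median log2 fold change of the 47 genes was -0.70, and without knockout 1 it was -1.56.

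**Figure D2:**
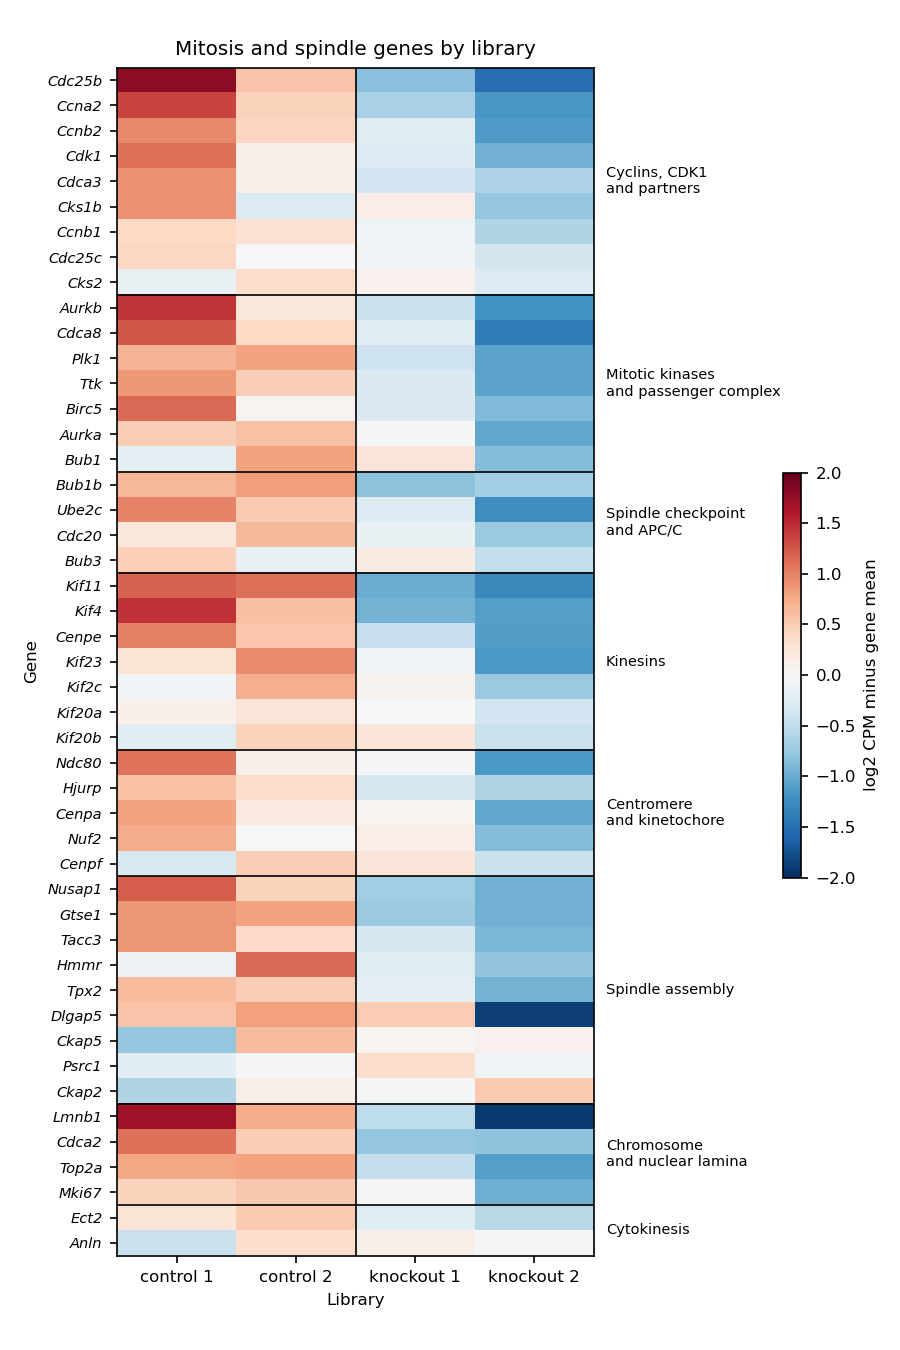
Heat map of the 47 genes (rows, by function) in the 4 libraries (columns), as log2 CPM minus the mean of the gene over the libraries. Most rows pass from red in the controls to blue in the knockouts. Knockout 2 is the lowest library in 42 rows, against 27.6% of all tested genes.

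Among the cyclins, CDK1 and its partners, 7 of 9 genes were lower in both knockouts, against 24.9% of all tested genes. The median log2 fold change was -1.06. Cdc25b encodes a phosphatase that removes the inhibitory phosphates from CDK1. It stood at 187 and 79.7 CPM in controls 1 and 2 and at 30.3 and 18.7 CPM in knockouts 1 and 2. The controls differed from each other more than the knockouts did, but both knockouts lay below both controls. The gene was 5.43-fold lower (log2 fold change -2.44, SE 0.52, edgeR adjusted p = 0.158, DESeq2 adjusted p = 0.000175). Without control 1 the log2 fold change was -1.67. Ccna2, the gene of cyclin A2, had 133 and 72.1 CPM in the controls and 33.6 and 23.5 CPM in the knockouts. It was 3.59-fold lower (log2 fold change -1.85, SE 0.43, edgeR adjusted p = 0.163, DESeq2 adjusted p = 0.00383), and 12.5% of its exon bases are shared with Exosc9 on the opposite strand. Ccnb2, the gene of cyclin B2, was at 166 and 114 CPM in the controls and 72.1 and 38.8 CPM in the knockouts, 2.53-fold lower, and passed narrowly in DESeq2 (adjusted p = 0.0495).

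Cdk1 itself stood at 89.0 and 44.5 CPM in the controls and 34.6 and 21.2 CPM in the knockouts. Control 2 was nearer to knockout 1 than to control 1, and the 2.39-fold difference passed neither test (log2 fold change -1.26, SE 0.47, edgeR adjusted p = 0.247, DESeq2 adjusted p = 0.108). Ccnb1, the gene of the main mitotic cyclin, was at 86.6 and 79.7 CPM in the controls and 61.3 and 43.2 CPM in the knockouts. Its fold change of -0.67 (log2, SE 0.35) was smaller than those of Ccna2 and Ccnb2; whether the 3 cyclins differ was not tested. Cdca3, which promotes degradation of the CDK1 inhibitor WEE1, had 65.6 and 37.3 CPM in the controls and 26.8 and 22.6 CPM in the knockouts. Cdc25c, a second CDK1-activating phosphatase, was the least abundant of the 47 per length, at 5.98 and 4.52 CPM against 4.25 and 3.47 CPM. About 12.7% of its exon bases overlap another annotated gene on the opposite strand, and reads of such stretches cannot be assigned without strand.

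Cks1b and Cks2 encode small subunits of CDK complexes, and their groups overlapped. Cks1b stood at 107 and 46.7 CPM in the controls and 62.4 and 33.1 CPM in the knockouts, so that control 2 lay below knockout 1. Its log2 fold change was -0.69 (SE 0.52), and 0.060 without control 1. Cks2 was at 32.3 and 45.5 CPM against 37.8 and 29.5 CPM, with a log2 fold change of -0.21 (SE 0.38). Cks1b has a close copy in the annotation (Cks1brt), so its reads are uncertain. Per kilobase of exon, Cks2 ranked 4 of the 47 genes in the controls (56.2 CPM per kilobase) and 1 in the knockouts (48.6), while Ccnb2 went from rank 1 (91.5) to rank 3 (36.2) and Cdc25b from rank 8 (35.7) to rank 23 (6.58).

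Of the mitotic kinases and the chromosomal passenger complex, which corrects faulty attachments and guides cytokinesis, 6 of 7 genes were lower in both knockouts. Over all tested genes this share was 24.9%. The median log2 fold change of the 7 genes was -1.31. Plk1, the gene of Polo-like kinase, stood at 38.2 and 41.6 CPM in the controls and 18.0 and 11.3 CPM in the knockouts. The controls lay close together and the gene was 2.72-fold lower (log2 fold change -1.45, SE 0.41, edgeR adjusted p = 0.179, DESeq2 adjusted p = 0.0403). Aurkb, the kinase of the passenger complex, was at 98.2 and 42.5 CPM in the controls and 26.9 and 15.7 CPM in the knockouts (3.30-fold lower, DESeq2 adjusted p = 0.0212). Cdca8, which encodes borealin of the same complex, had 157 and 86.6 CPM in the controls and 56.0 and 24.9 CPM in the knockouts (3.00-fold lower, DESeq2 adjusted p = 0.0301). Both were higher in control 1 than in control 2 and higher in knockout 1 than in knockout 2.

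Birc5, the gene of survivin and the third passenger member, stood at 109 and 51.6 CPM against 40.6 and 26.8 CPM. Aurka, the kinase of the spindle poles, was nearly even in the controls (45.8 and 48.5 CPM) and uneven in the knockouts (31.8 and 15.7 CPM). Ttk, a checkpoint kinase gene, had 27.3 and 21.1 CPM in the controls and 12.4 and 7.17 CPM in the knockouts. These 3 genes had both knockouts below both controls but passed in neither edgeR (adjusted p = 0.237 to 0.321) nor DESeq2 (0.106 to 0.240). Bub1, another checkpoint kinase gene, was the exception in the group, at 15.3 and 30.6 CPM in the controls and 20.8 and 9.64 CPM in the knockouts, where knockout 1 lay above control 1 (log2 fold change -0.59, SE 0.56, edgeR adjusted p = 0.659).

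The checkpoint and APC/C genes went unequally. Bub1b encodes BUBR1, the checkpoint protein that binds and blocks the APC/C activator CDC20. It was at 70.9 and 80.4 CPM in the controls and 25.4 and 28.0 CPM in the knockouts, with both groups tight, and was 2.83-fold lower (SE 0.34 on the log2 scale, edgeR adjusted p = 0.163, DESeq2 adjusted p = 0.0121). Ube2c, the ubiquitin-conjugating enzyme of the APC/C, stood at 88.7 and 64.4 CPM in the controls and 36.7 and 18.8 CPM in the knockouts (2.76-fold lower, DESeq2 adjusted p = 0.0369), with 22.8% of its exon bases shared with Tnnc2 on the opposite strand. Cdc20 was at 74.95 and 99.9 CPM against 58.0 and 38.1 CPM (log2 fold change -0.86, SE 0.38). Bub3, whose protein carries BUB1 and BUBR1 to kinetochores, had groups that overlapped. It stood at 306 and 199 CPM in the controls and 246 and 156 CPM in the knockouts (log2 fold change -0.33, SE 0.39).

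Kinesins gave the smallest p of the 47 genes. Kif11 (ENSMUSG00000012443), the motor that pushes the spindle poles apart, was at 90.7 and 86.4 CPM in controls 1 and 2 and at 20.0 and 16.4 CPM in knockouts 1 and 2. The spread within each group was small beside the gap between them, and Kif11 was 4.86-fold lower (log2 fold change -2.28, SE 0.35, edgeR adjusted p = 0.145, DESeq2 adjusted p = 2.45e-05). Kif4, a motor of chromosome arms and the central spindle, stood at 43.1 and 24.1 CPM against 8.20 and 7.34 CPM. It was 4.32-fold lower (edgeR adjusted p = 0.161, DESeq2 adjusted p = 0.00261), with 15.1% of its exon bases shared with Pdzd11 on the opposite strand. Cenpe, the kinetochore motor that brings chromosomes to the spindle equator, had 48.7 and 35.6 CPM in the controls and 17.6 and 11.2 CPM in the knockouts (2.93-fold lower, DESeq2 adjusted p = 0.0272).

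The other 4 kinesins were nearer 0. Kif23, a central spindle motor of cytokinesis, was at 39.2 and 62.2 CPM in the controls and 30.6 and 14.6 CPM in the knockouts (log2 fold change -1.17, SE 0.49). Kif20a, also a motor of cytokinesis, stood at 41.5 and 46.1 CPM against 39.0 and 29.6 CPM (log2 fold change -0.35, SE 0.36). About 29.3% of its exon bases are shared with Cdc23, an APC/C subunit gene on the opposite strand. Kif2c, a microtubule depolymerase of centromeres, was at 20.2 and 34.9 CPM against 21.99 and 12.6 CPM, and Kif20b, a relative of Kif20a, at 12.9 and 20.7 CPM against 18.0 and 11.2 CPM. The log2 fold changes were -0.67 (SE 0.49) for Kif2c and -0.20 (SE 0.49) for Kif20b. In both of these, control 2 was the highest library, knockout 2 the lowest, and control 1 lay below knockout 1.

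Centromere and kinetochore genes had a median log2 fold change of -0.93. Of these, 3 of 5 were lower in both knockouts (24.9% of all tested genes). DESeq2 called 0 of the 5 lower (5.69% of the genes it tested) and 0 higher (2.72%). Hjurp, the chaperone that loads the centromeric histone CENP-A, stood at 155 and 132 CPM in the controls and 81.2 and 67.4 CPM in the knockouts, with both groups tight (1.93-fold lower, log2 fold change -0.95, SE 0.33, edgeR adjusted p = 0.218). Cenpa, the gene of that histone, was at 148 and 96.6 CPM against 86.9 and 41.4 CPM, so that control 2 and knockout 1 lay close together. Ndc80, which encodes a microtubule-binding protein of the outer kinetochore, was at 59.4 and 30.2 CPM in the controls and 27.4 and 12.7 CPM in the knockouts. Its partner Nuf2 was at 20.1 and 11.9 CPM against 13.2 and 6.56 CPM, with knockout 1 above control 2 (log2 fold change -0.69, SE 0.56). Cenpf, a large kinetochore protein gene, stood at 23.0 and 40.2 CPM against 34.1 and 21.0 CPM, and its groups overlapped (log2 fold change -0.20, SE 0.46).

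Of the spindle assembly genes, 6 of 9 were lower in both knockouts (24.9% of all tested genes). The other 3 lay near 0 or above it, and the median log2 fold change of the 9 was -1.08. Nusap1, a protein that bundles spindle microtubules, was at 132 and 78.0 CPM in the controls and 35.3 and 29.5 CPM in the knockouts (3.25-fold lower, edgeR adjusted p = 0.163, DESeq2 adjusted p = 0.00608). Gtse1, a microtubule regulator of G2 and mitosis, had tight groups at 29.3 and 27.9 CPM against 9.58 and 8.18 CPM (3.22-fold lower, edgeR adjusted p = 0.165, DESeq2 adjusted p = 0.0156). Tacc3, a spindle protein that Aurora A phosphorylates, stood at 150 and 105 CPM in the controls and 63.6 and 43.1 CPM in the knockouts (2.39-fold lower, DESeq2 adjusted p = 0.0534). Tpx2, the activator of Aurora A, was at 92.3 and 83.9 CPM against 52.5 and 31.0 CPM. Both knockouts were below both controls also for Hmmr, a spindle pole protein gene, at 16.6 and 39.0 CPM against 15.0 and 10.3 CPM. The same held for Dlgap5, which stabilises kinetochore fibres, at 15.9 and 18.9 CPM against 15.2 and 2.91 CPM, where knockout 1 was close to the controls and knockout 2 far below.

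Ckap5, Ckap2 and Psrc1, all genes of microtubule-associated spindle proteins, did not share the direction. Ckap5, a microtubule polymerase that also acts outside mitosis, stood at 27.0 and 72.0 CPM in the controls and 47.7 and 49.2 CPM in the knockouts, so that both knockouts lay between the controls (log2 fold change -0.03, SE 0.50). Ckap2 was at 9.04 and 14.8 CPM in the controls and 13.3 and 19.7 CPM in the knockouts (log2 fold change 0.47, SE 0.49). Psrc1 was at 9.11 and 10.5 CPM against 13.6 and 10.03 CPM (0.27, SE 0.48). Ckap2, Psrc1 and Anln were the 3 genes with a positive fold change (50.1% of all tested genes), each within its error of 0.

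Genes of chromosomes and the nuclear lamina had the lowest median of the functions, -1.58. Of these, 4 of 4 were lower in both knockouts (24.9% of all tested genes). Top2a, topoisomerase II of dividing cells, which untangles sister chromatids, stood at 178 and 183 CPM in the controls and 74.7 and 48.7 CPM in the knockouts. The controls were close to each other and the gene was 2.93-fold lower (log2 fold change -1.55, SE 0.36, edgeR adjusted p = 0.163, DESeq2 adjusted p = 0.00706). Lmnb1, the gene of lamin B1, was uneven within both groups, at 229 and 118 CPM against 49.8 and 18.8 CPM, and 5.05-fold lower (log2 fold change -2.34, SE 0.57, edgeR adjusted p = 0.165, DESeq2 adjusted p = 0.000696). Cdca2, a phosphatase subunit of anaphase chromosomes, was at 44.8 and 29.3 CPM against 12.2 and 11.9 CPM (3.06-fold lower, DESeq2 adjusted p = 0.0211). Mki67, the gene of the proliferation marker Ki-67, stood at 49.6 and 53.0 CPM in the controls and 35.8 and 18.6 CPM in the knockouts (1.89-fold lower, log2 fold change -0.92, SE 0.43, edgeR adjusted p = 0.338, DESeq2 adjusted p = 0.275). The spread of Mki67 lay in the knockouts, which differed by 0.95 on the log2 scale, while control 1 over control 2 gave -0.10.

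Of the 2 cytokinesis genes, Ect2, the activator of RhoA at the cleavage plane, was at 34.1 and 40.3 CPM in the controls and 23.7 and 19.2 CPM in the knockouts (log2 fold change -0.80, SE 0.37). Anln, the gene of anillin of the contractile ring, was at 12.9 and 22.4 CPM against 19.1 and 17.4 CPM (0.05, SE 0.46), and both knockouts lay between the controls.

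**Figure D3:**
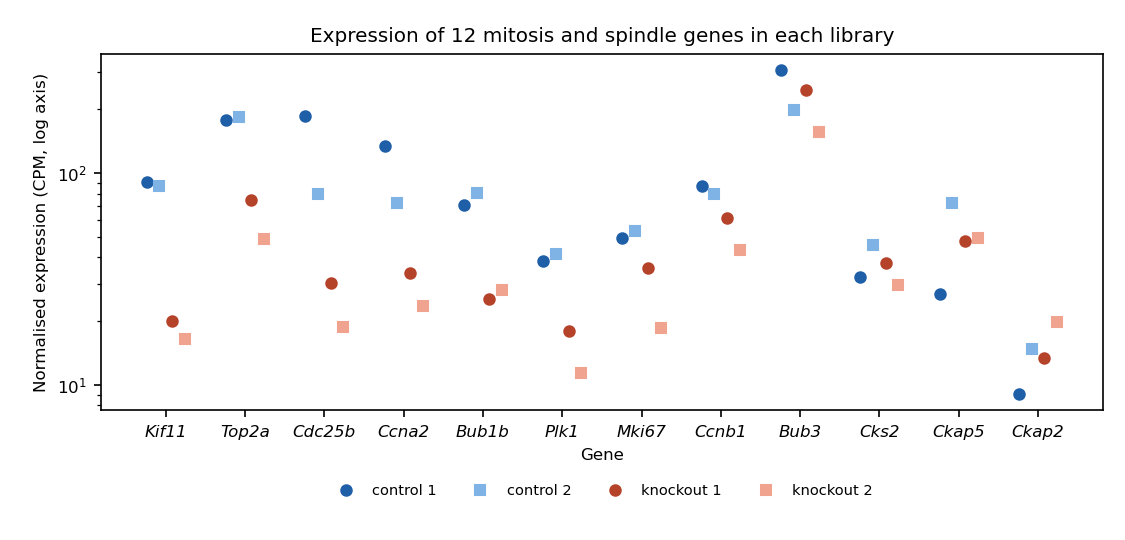
Normalised expression (CPM, log axis) of 12 of the genes in each library, picked after their values were seen to show both patterns. For the 8 genes from Kif11 to Ccnb1 both knockouts (red shades) lie below both controls (blue shades), whereas for Bub3, Cks2, Ckap5 and Ckap2 the groups overlap.

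The 12 genes with overlapping groups were Cks1b, Cks2, Bub1, Bub3, Kif2c, Kif20b, Nuf2, Cenpf, Ckap2, Ckap5, Psrc1 and Anln. In 9 of these 12, control 2 was above control 1. The same was so in 11 of the 35 genes that were lower in both knockouts. Over all tested genes, control 1 was above control 2 in 48.5%. The 12 and the 35 were told apart by values in these same libraries, so their contrast is a description only. The functions also differed in which control was higher. Control 1 was above control 2 in 8 of 9 cyclin and CDK1 genes and in 4 of 5 kinetochore genes, but in 3 of 7 kinesin genes and 4 of 9 spindle assembly genes. Across the 47 genes, the log2 ratio of control 1 to control 2 had a Spearman's rho of -0.26 with exon length, and of -0.24 across the 17119 tested genes with a length. Genes share their libraries and are not independent, so these are descriptions only, and the part of transcript length in the results was not tested. The log2 fold change itself had a rho of 0.16 with exon length across the 47 genes and of 0.01 across all tested genes.

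Left out in turn, the libraries moved the functions to different degrees. The cyclin and CDK1 median of -1.06 was -0.58 without control 1 and -1.44 without control 2, and the kinesin median of -1.17 was -0.68 without knockout 2 and -1.79 without knockout 1. For the kinetochore genes the median of -0.93 was -0.45 without knockout 2 and -0.56 without control 1. The spindle assembly median of -1.08 was -0.70 without knockout 2, and that of the 2 cytokinesis genes, -0.37, ran from -0.58 without control 1 to -0.12 without control 2. The median of the chromosome and lamina genes stayed between -1.75 and -1.39. Among the 16 genes that DESeq2 called, leaving out 1 library moved the fold by over 1.5 times for Aurkb (log2 fold change -0.97 without control 1), Cdc25b (-1.67 without control 1), Cdca8 (-2.28 without knockout 1) and Lmnb1 (-3.20 without knockout 1). Dlgap5 ranged from -2.57 without knockout 1 to -0.15 without knockout 2, and Cdk1 was -0.64 without control 1. Calls moved too. Without knockout 1, edgeR called 4 of the 47 genes lower (3.69% of all tested genes) and 0 higher (1.13%), namely Lmnb1, Cdc25b, Cdca8 and Kif11. Without control 1 it called Kif11 alone lower (1.12%) and 0 higher (0.496%). It called 0 without control 2 (0% in either direction) and 0 without knockout 2 (0.00523% lower, 0.0784% higher). Without the filter on low counts it called 15 of the 47 lower (3.2%) and 0 higher (1.43%), and with the replicate number as a block 3 lower (1.08%) and 0 higher (0.344%).

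**Figure D4:**
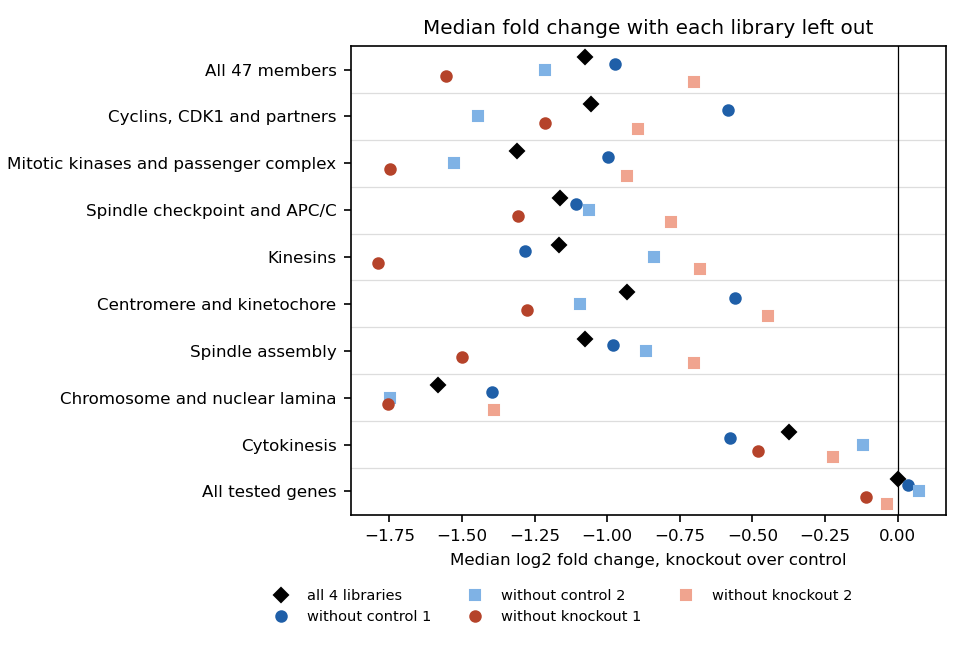
Median log2 fold change (x axis, knockout over control) of the 47 genes, of each function and of all tested genes, with all 4 libraries (black) and with each library left out. All medians of the functions stay below 0, the one for the 47 genes lies between -1.56 and -0.70, and that of all tested genes between -0.11 and 0.07.

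Most lists of related mitotic complexes had more genes lower than higher in both knockouts. Over all tested genes, 24.9% were lower and 25.8% higher. Of 14 centrosome and cytokinesis genes 12 were lower in both knockouts (median log2 fold change -1.07), as were 14 of 18 cohesin and condensin genes (-0.57), 13 of 28 further kinetochore genes (-0.60) and 4 of 7 further mitotic kinesins (-1.64). The kinetochore median was -0.22 without control 1 and -0.35 without knockout 2. Pttg1, the gene of securin, which holds back the separation of sister chromatids, was the 1 gene of these lists that was higher in both knockouts, and it was named after its value was seen (log2 fold change 0.72). None of these genes passed in edgeR, while DESeq2 called 5, 4, 4 and 3 of them lower (5.69% of the genes it tested) and 0 higher (2.72%). Kif15, which helps Kif11 hold the poles apart, stood at 20.7 and 21.3 CPM in the controls and 5.07 and 3.25 CPM in the knockouts (DESeq2 adjusted p = 0.00159). Cep55, a protein of the final cut between daughter cells, was at 22.9 and 24.4 CPM against 6.15 and 5.72 CPM, and Incenp, the scaffold of the passenger complex, at 135 and 79.0 CPM against 33.5 and 25.5 CPM.

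The core subunits and regulators of the APC/C did not lean that way. Among the 17 tested, both knockouts lay below the controls for 4 (23.5%, against 24.9% of all tested genes). They lay above them for 4 (25.8% of all tested genes). Their median was 0.24, but -0.08 without knockout 1 and 0.06 without control 2. Fbxo5, the inhibitor EMI1 of the complex, was the one called lower by DESeq2, at 124 and 65.9 CPM against 29.1 and 18.4 CPM (log2 fold change -2.00, SE 0.46). Kinesins that carry cargo outside mitosis were not lower either: 0 of 16 were lower (24.9% of all tested genes) and 6 higher (25.8%) in both knockouts. Their median was 0.31, and 0.07 without control 1 or 0.89 without control 2. Among the 6 was Kif5a, a neuronal motor gene, at 4.73 and 5.09 CPM against 15.4 and 34.7 CPM. The 10 further genes that control entry into mitosis, Cdc25a among them, had 4 lower (24.9% of all tested genes) and 2 higher (25.8%). Their median was -0.43, but -0.09 without control 1 and -0.19 without knockout 2. Chek1, the kinase of the DNA damage checkpoint, stood at 22.9 CPM in control 1 but 6.36 CPM in control 2, near the 4.25 and 3.59 CPM of the knockouts.

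Among 11 genes of MuvB and its partner factors, 7 were lower (24.9% of all tested genes) and 2 higher (25.8%) in both knockouts. Their median was -0.62, and -0.32 without control 1 or without knockout 1. Mybl2, the gene of B-MYB, was at 18.1 and 9.93 CPM in the controls and 3.28 and 4.32 CPM in the knockouts (DESeq2 adjusted p = 0.0447). Foxm1 stood at 20.8 and 15.2 CPM against 8.15 and 5.55 CPM, and Rbbp4, a subunit of MuvB and of other chromatin complexes, at 516 and 311 CPM against 151 and 144 CPM (DESeq2 adjusted p = 0.0125). Lin54, the MuvB subunit that binds the CHR, was higher in both knockouts, at 8.55 and 13.05 CPM against 17.4 and 20.0 CPM. Of 11 housekeeping genes 3 were lower (27.3%, near the 24.9% of all tested genes) and 1 was higher. Their median was -0.30, and 0.05 without control 1 or -0.11 without knockout 2.

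Markers of blood cells, except those of mature neutrophils (given below), moved between the same libraries, although the gate was set against CD45 and Ter119. Ptprc, the gene of CD45, stood at 140 and 144 CPM in the controls and 39.2 and 9.25 CPM in the knockouts. Of 7 markers of B cell precursors, which divide rapidly in bone marrow, 7 were lower in both knockouts, against 24.9% of all tested genes. Their summed level was 4983 and 1799 CPM in the controls against 774 and 145 CPM in the knockouts. The 8 leukocyte markers summed to 2901 and 977 CPM against 417 and 146 CPM (7 lower), the 5 neutrophil precursor markers to 363 and 238 CPM against 42.4 and 36.9 CPM (5 lower), and the 11 erythroid markers to 654 and 559 CPM against 121 and 164 CPM (10 of 11 lower). None of these 31 markers was at 0 in any library. The order of the libraries by B cell precursor and leukocyte markers, from control 1 through control 2 and knockout 1 to knockout 2, was that of the 47 mitosis genes. For the mitosis genes the order of the controls was weakly set, with control 1 above control 2 in 27 of 47. The median log2 ratio of control 1 to control 2 was 0.14 there, against 0.87 for B cell precursor and 1.46 for leukocyte markers. The medians of log2 fold changes were -3.19 for B cell precursors and -2.42 for leukocytes, against -1.08 for the mitosis genes. The leukocyte median was -1.39 without control 1. How much of the difference in mitosis genes came from these cells was not tested.

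For several other cell types the median rested on single libraries. Of all 17128 tested genes, 24.9% were lower in both knockouts, 25.8% were higher, and 8455 overlapped. Endothelial markers had 3 of 7 lower and 0 higher in both knockouts (median -0.63), Schwann cell markers 3 of 6 lower and 1 higher (-0.83), and dental epithelium markers 5 of 10 lower and 0 higher (-1.05, control 1 highest). The endothelial median was -0.09 without control 2 and -1.05 without control 1, the Schwann cell median was -0.30 without control 2, and that of dental epithelium ran from -1.76 (without knockout 1; -1.65 without control 2) to -0.26 (without control 1). Pericyte markers overlapped in 5 of 5 (median -0.01), as did mature neutrophil markers in 5 of 5 (-0.45), and the odontoblast markers had 2 of 5 lower and 1 higher (-0.52). With 1 library left out these 3 medians took either sign: the pericyte median ran from -1.01 (without knockout 2) to 0.60 (without knockout 1), that of mature neutrophils from -1.81 (without knockout 1) to 0.23 (without knockout 2; 0.13 without control 1), and that of odontoblasts from -0.97 (without control 1) to 0.15 (without control 2). Dental mesenchyme markers, those of the labelled tissue, had counts in every library except for Barx1, which had 0, 1, 3 and 120 counts and did not pass the filter. Of the other 7, 5 were higher in both knockouts (median 1.42). Msx1, a homeobox gene of this mesenchyme, stood at 724 and 847 CPM in the controls and 2912 and 2525 CPM in the knockouts.

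**Figure D5:**
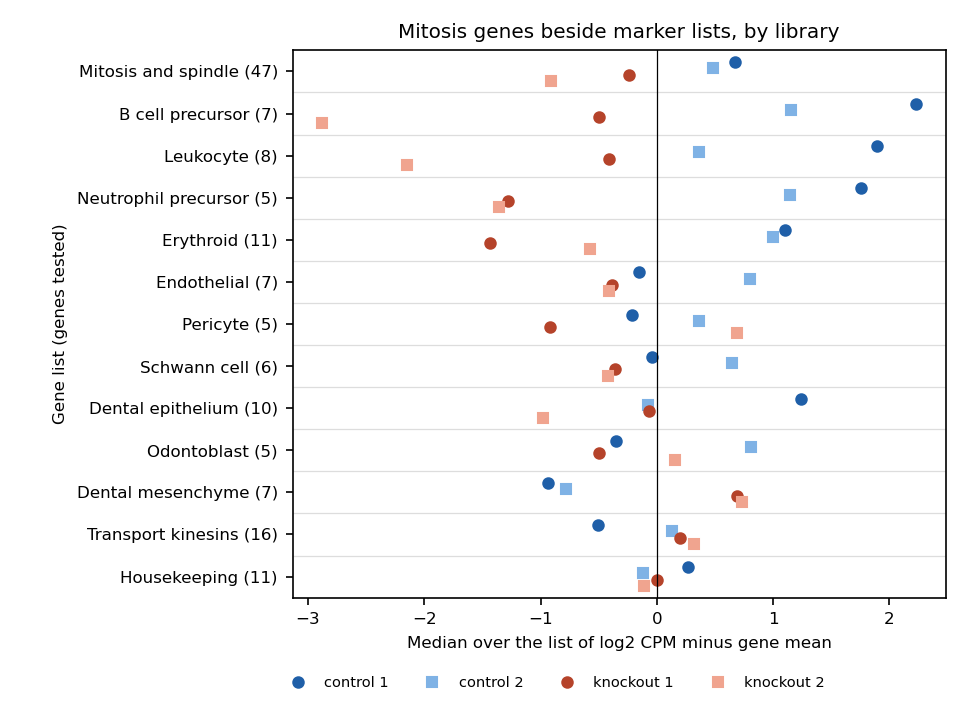
Median over each gene list of log2 CPM minus the gene's mean (x axis), for the mitosis and spindle genes and 12 comparison lists (y axis, number of genes tested in brackets), with 1 point per library. Mitosis genes and the B cell precursor and leukocyte markers share the order control 1, control 2, knockout 1, knockout 2 from high to low, while dental mesenchyme markers are higher in both knockouts. For the mitosis genes the controls lie close together (0.68 and 0.48).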

How the data were processed

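Polyadenylated RNA of 4 libraries of sorted lower incisor cells was analysed. Per the labels' protocols, reverse transcription used oligo-dT and template switching, and the cDNA had 14 PCR cycles and was then fragmented with a kit, and no molecular identifiers are described, so floors cover counting error only. The deposited values are whole-number read counts per Ensembl gene, not normalised, in 1 table whose columns all belonged to the 4 libraries. The tools listed, per the submitters' processing notes, are featureCounts 2.0.1, Bowtie2 2.3.5.1 and Trim Galore 0.6.6, with build GRCm38. Not given in the sources used here are the annotation release, the strand setting and the handling of reads with several matches.

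Of 55487 genes, 55227 matched GENCODE M21 (GRCm38), which gave symbols and union exon lengths, and may not be the authors' annotation. The test was edgeR 4.0.16 (R 4.3.3), quasi-likelihood F-test, two-sided, with TMM, filterByExpr (17128 genes) and genotype as the only term, adjusted over all tested genes. CPM uses TMM-scaled library sizes. The SE is the absolute log2 fold change over the square root of F. The biological coefficient of variation was 49.2%, and 3 counts correspond to 0.154 to 0.209 CPM. Centred values use log2 CPM with a prior count of 2. DESeq2 1.42.0 and limma-voom (limma 3.58.1), 2 other scalings, no filter, a stricter filter (10 counts in each library of a group and over 1 CPM in 2 libraries), a replicate block and leaving out each library were alternatives. The fitting functions were tested on simulated data. The members and lists were chosen with earlier results of these data known. Values in every library were given for the 3 members with the smallest p in each function, for the 12 that were not lower in both knockouts, and for Mki67, Top2a, Cdk1, Ccnb1, Bub3 and Ckap5; in each related list the 2 genes with the smallest p were candidates for naming, and Foxm1, Lin54, Ptprc, Msx1 and the remaining members were named after their values were seen. Reads of near-identical gene copies can be split or lost in counting.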

Additional observations from a re-analysis of the deposited data

How the results depend on the processing

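The median log2 fold change of the 47 genes stayed negative under every alternative run. It was -1.12 with RLE size factors, -1.04 with total library sizes and -1.14 with the stricter filter, and ranged from -1.56 to -0.70 with 1 library left out. These scalings moved the median of all tested genes by -0.03 and 0.04. The count of genes lower in both knockouts was 33 with total library sizes and 35 to 43 with 1 library left out. Fewer libraries have to be separated when 1 is left out. The share of all tested genes was not counted in these settings, so these counts cannot be set against one. Calls depended on the tool and filter. Of the 47 genes edgeR called 0 lower with either scaling or the stricter filter, and 15 (3.2% of all tested genes) without a filter. DESeq2 called 16. With 1 library left out, 0 to 4 were called: 1 without control 1 (1.12% of all tested genes), 4 without knockout 1 (3.69%) and 0 without control 2 or knockout 2. None was called higher under any alternative. Over all genes, edgeR called 0 in both directions. Without the filter it called 1005 lower and 449 higher, DESeq2 989 and 472, and with 1 library left out there were 0 to 703 lower and 0 to 215 higher. With the replicate block, edgeR called 185 lower and 59 higher, and 3 of the 47 genes lower (1.08%): Kif11 (adjusted p = 0.0414), Cdc25b (0.0414) and Lmnb1 (0.0405). The labels name no pairing, same-numbered libraries deviated together with a correlation of 0.145 across genes, and 2 pairs are too few to decide. Signs changed only among the genes with overlapping groups. Ckap5 was 0.12 in limma-voom and 0.13 with the replicate block, and Anln -0.0093 with the stricter filter. With 1 library left out, Ckap5 ranged from -0.55 to 0.81, Anln from -0.27 to 0.47, Bub3 from -0.68 to 0.042, Cks1b from -1.21 to 0.060, Cks2 from -0.41 to 0.023, Kif20b from -0.57 to 0.14 and Cenpf from -0.58 to 0.22. The causes of these changes were not tested. With 1 library left out, the lone library of its group is assumed to vary like the others.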
